A study of Mus musculus with 3 samples.

Results

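The Dlk1-Dio3 microRNA cluster is the group of microRNAs (miRs) between Dlk1 and Dio3 on mouse chromosome 12. Its members were the annotated miR locations on chromosome 12 with a deposited start between 109.5 and 109.8 Mb in mm10, and this rule uses position alone, not read levels. This gave 116 miR locations at 60 hairpins, of 2045 locations at 1187 hairpins in the series. Of the 116 locations, 102 were in the read tables, and the other 14 were counted as 0 reads. Small RNA was sequenced in primary mouse AoSMC (smooth muscle cells of the aorta), grown out from aorta pieces of C57BL/6 mice in medium with serum and harvested near confluence. The series held 1 untreated group of 3 libraries, described as biological replicates. Several aortas were used for the cells, and no label says whether the libraries came from separate cultures, so p-values measure only the spread between these libraries, which may be technical. With 1 group, each comparison set 2 RNAs of the same libraries against each other: the 5p and the 3p miR of a hairpin, or a microRNA-offset RNA (moR) and the miR beside it. The 2 RNAs differ in sequence, and whether sequencing captured them equally well was not tested.

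A miR is a short RNA that Drosha and Dicer cut from one arm of a hairpin, and each hairpin can give a 5p and a 3p miR. A moR is a short RNA from the sequence just outside the miR on the same arm. The Dlk1-Dio3 domain is imprinted: its noncoding RNAs and miRs are made from the maternal chromosome, while Dlk1, Rtl1 and Dio3 are expressed from the paternal one. The miRs are known from placenta, brain and embryonic tissues, and the human counterpart of the cluster on the long arm of chromosome 14 has been studied in blood vessel growth.

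The miRs that carried most of the reads are shown first, each with the seed (bases 2 to 8, which pair with targets) in capitals. The sequences are from RefSeq (GRCm38.p6, the same build as mm10), where 112 of the 116 members had a mature sequence at their location. All lie on the plus strand of chromosome 12.
miR-127-3p: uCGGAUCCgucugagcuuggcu
miR-379-5p: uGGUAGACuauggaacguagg
miR-411-5p: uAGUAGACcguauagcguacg
miR-541-5p: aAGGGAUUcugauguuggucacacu
miR-434-5p: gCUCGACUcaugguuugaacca
miR-381-3p: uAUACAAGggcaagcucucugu
miR-300-3p: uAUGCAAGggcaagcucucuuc
miR-127-3p (chr12:109592888-109592909) and miR-434-5p (chr12:109594528-109594549) lie opposite an exon of Rtl1, a retrotransposon-derived gene that their hairpins overlap in antisense. The first hairpins of the large array, with miR-379-5p (chr12:109709065-109709085) and miR-411-5p (chr12:109710190-109710210), were in no annotated exon or intron of the host genes in GENCODE M21, nor were miR-381-3p (chr12:109726870-109726891) and miR-300-3p (chr12:109724363-109724384). miR-541-5p (chr12:109742422-109742446) lies in an intron of Mirg, a noncoding host RNA.

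The libraries held 13632069, 12546339 and 15175671 reads in miR and moR windows by the deposited totals, and levels are given in RPMR, reads per 1000000 of these window reads. One read was worth 0.0734, 0.0797 and 0.0659 RPMR in replicates 1, 2 and 3. A miR without a read had an upper limit of 3 reads, or 0.220, 0.239 and 0.198 RPMR, and all intervals and limits cover counting error only. Windows took 73.1% of the mapped reads of replicate 1, against 83.0% and 81.9% in replicates 2 and 3. The label was checked on miRs of known cell types. The smooth muscle miRs miR-143 and miR-145 summed to between 48742 and 59042 RPMR, endothelial miR-126 to between 125 and 158, striated muscle miRs to between 118 and 152 (10 of 18 detected, nearly all of the level from miR-206-3p), epithelial miRs to between 36.3 and 43.8, neuronal miRs to between 13.9 and 14.4, hepatic miR-122 to between 1.54 and 1.75, and blood miRs to between 0.513 and 1.12 with none above 1 RPMR.

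In 3 places hairpins of the cluster lie on opposite strands of one locus: mir-3071 opposite mir-136, mir-299b opposite mir-299a, and mir-3544 opposite mir-337. miR-136-5p and miR-3071-3p each had 132, 127 and 183 reads. Counting thus took no account of strand, and which strand gave these reads cannot be told apart. Whether a read counted in full for both or was split evenly between them was not tested. All counts of mir-136 and mir-3071 were whole. If reads were split, leaving a hairpin out drops reads of the cluster. Counts are therefore given with and without mir-3071, mir-299b and mir-3544.

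The cluster was broadly but modestly expressed. Its miRs summed to 1173, 1218 and 1187 RPMR in replicates 1, 2 and 3, a mean of 1193 ± 23.0 RPMR (SD, n = 3) or 0.119% of window reads. The exact 95% Clopper-Pearson intervals of that share were 0.116% to 0.119%, 0.120% to 0.124% and 0.117% to 0.120%. Without the 3 opposite hairpins the sum was 1121, 1176 and 1143 RPMR, a mean of 1146 ± 27.9 RPMR (SD, n = 3). The coefficient of variation of the sum over the libraries was 1.93%, and 2.43% without the opposite hairpins.

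Of the 116 members, 95 had a read, 79 had a read in every library, 50 were above 1 RPMR on average, 21 above 10, 4 above 100 and 0 above 1000. Among the 1929 other locations of the series, 1040 had a read, 445 were above 1 RPMR and 61 above 1000. As shares, 43.1% of members and 23.1% of other locations were above 1 RPMR, and 0% of members and 3.16% of other locations were above 1000. Leaving out the opposite hairpins, 46 of 110 members were above 1 RPMR. Members were thus more often detected than other locations and held none of the very abundant miRs, a description for which no test was made. No read was found for 21 members, and 8 hairpins had no read at any located miR, among them mir-432, mir-544 and mir-654. For some of them not both arms were located, as at mir-432, where only the 3p miR was. The located miRs next to the boundaries of the rule were miR-1906 at 0 RPMR and miR-3072-3p at 0.166 RPMR inside, and miR-345-3p at 40.7 RPMR and miR-1247-3p at 2.37 RPMR outside.

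**Figure D1:**
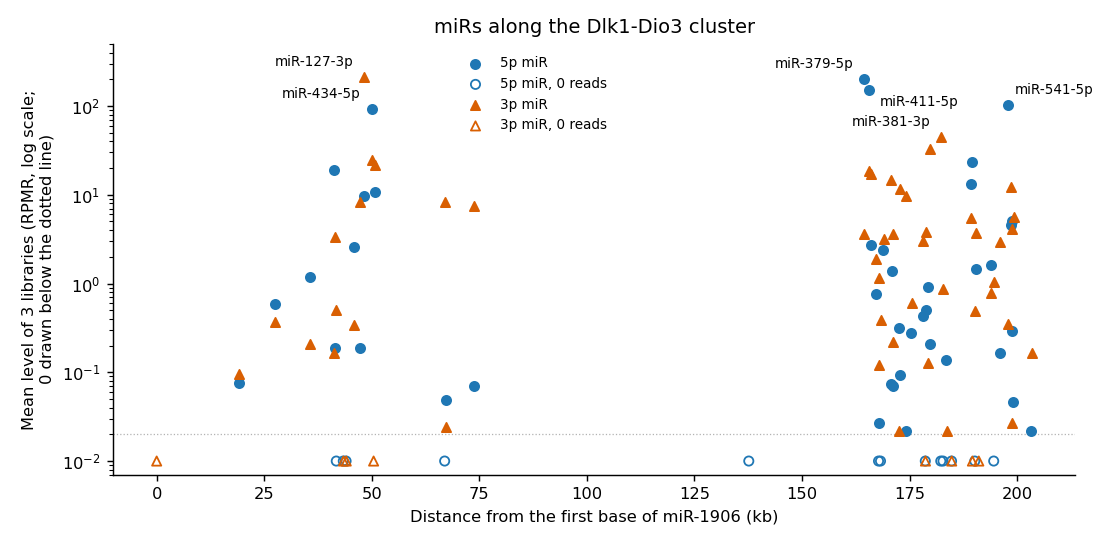
Mean level of each miR of the cluster (RPMR of 3 libraries, log scale) by its distance in kb from miR-1906, with 5p miRs as circles and 3p miRs as triangles, hollow and below the dotted line at 0 reads, without mir-3071, mir-299b and mir-3544. The high miRs stand at both ends, with miR-127-3p at 212 RPMR on the left and miR-379-5p at 200.0 RPMR on the right. The hairpins after mir-341 and before mir-379 reach only 7.44 RPMR. miR-341-3p, also in an intron of Rian but counted with the left end, stands at 8.26 RPMR.

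The levels differed by position along the locus. The mir-379 to mir-410 array, counted with mir-3072 after it, had 38 hairpins besides mir-299b. It held 671, 758 and 741 RPMR, or 63.1% of the reads of the cluster. The end from mir-770 to mir-341, counted with mir-1906, had 16 hairpins and held 440.2, 411 and 396 RPMR, or 36.3%. The 3 hairpins between, at and after Rian, held 9.10, 7.33 and 6.33 RPMR, or 0.662%, nearly all as miR-370-3p. Within the first end, the hairpins antisense to Rtl1 stood out, and those in Meg3, the noncoding RNA at the start of the domain, were nearly silent. The 11 miRs antisense to Rtl1 held 33.3% of the reads of the cluster, and the 3 miRs in Meg3 held 0.0148%, which were 7 reads in all. The 27 miRs in Mirg held 16.5%, the 6 in introns of Rian 1.38%, and the 63 in no annotated host 48.8%.

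A few miRs made up most of the level. The 5 highest held 66.2% of the reads of the cluster, leaving out the opposite hairpins. miR-127-3p, which is known to cleave the Rtl1 transcript it lies opposite to, stood at 248, 199 and 187 RPMR, a mean of 212 ± 32.5 (SD, n = 3). miR-379-5p, the first miR of the large array, stood at 157, 230.0 and 213 RPMR, a mean of 200.0 ± 37.9 (SD, n = 3). miR-411-5p, from the next hairpin, stood at 119, 169 and 167 RPMR, a mean of 152 ± 28.0 (SD, n = 3). Replicate 1 was the highest library for miR-127-3p and the lowest for the other two, and their ranges overlapped in the order in which they are given. miR-541-5p stood at 114, 94.3 and 100.4 RPMR. miR-434-5p stood at 74.9, 105 and 98.0 RPMR. These ranges overlapped each other, and lay below every value of miR-411-5p and above every value of miR-381-3p, which stood at 51.9, 40.1 and 41.4 RPMR. miR-300-3p followed at 30.1, 34.8 and 33.5 RPMR, with no overlap with its neighbours on either side.

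The next 8 of the 15 highest miRs had means between 14.7 and 24.4 RPMR, and each overlapped the next in the order miR-434-3p, miR-134-5p, miR-136-3p, miR-3071-5p, miR-337-5p, miR-411-3p, miR-299a-3p and miR-494-3p. miR-3071-5p, at 25.0, 19.5 and 18.0 RPMR, shared nearly all its counts with miR-136-3p opposite to it, at 25.7, 19.8 and 18.7 RPMR. miR-134-5p, known in mouse and rat neurons for a role in dendritic spine size, stood at 20.8, 25.0 and 25.2 RPMR. Among all miRs of the series, the 15 ranked between place 124 and place 279.

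**Figure D2:**
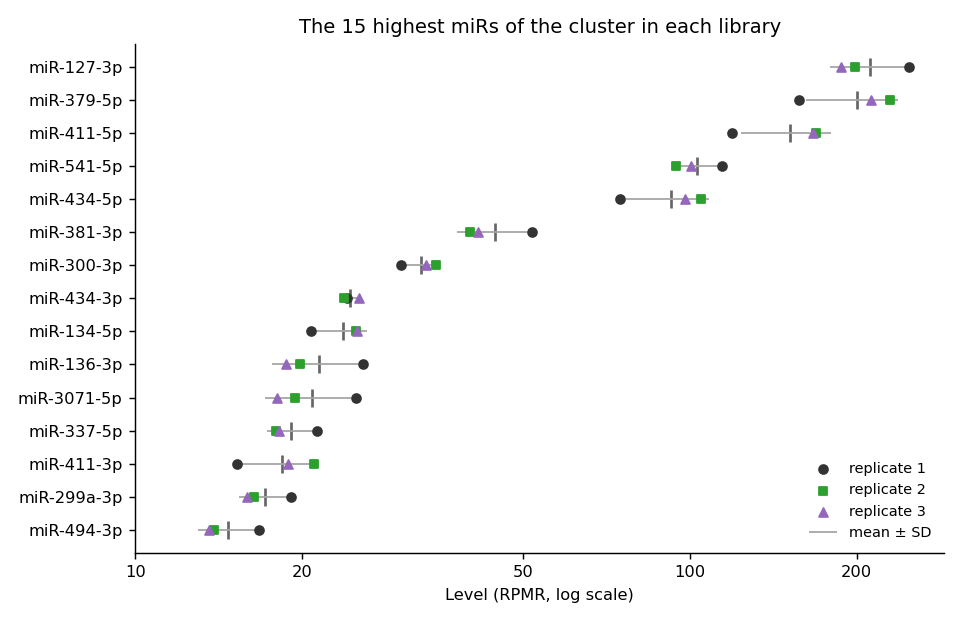
Level of the 15 highest miRs of the cluster in each library (RPMR, log scale), with a symbol for each replicate, the mean as a tick and ± SD of 3 libraries as a line. miR-127-3p, miR-379-5p and miR-411-5p lie above 119 RPMR in every library, and the 8 lowest miRs lie below 26 RPMR.

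Known families and functional lists of the cluster were described by their levels, with overlapping membership. The higher arm was above 1 RPMR in 35 of the 57 hairpins of the cluster, with a median of 2.56 RPMR, against 335 of all 1187 hairpins (28.2%), with a median of 0.0730 RPMR. Of the 6 hairpins antisense to Rtl1, 5 had an arm above 1 RPMR, with a median of 14.8 RPMR. Their miRs above 10 RPMR were miR-127-3p, miR-434-5p, miR-434-3p, miR-136-3p and miR-136-5p, and mir-432 had no read. The mir-379 family, which holds mir-411, mir-299a and mir-543 among others, had 8 of 10 hairpins above 1 RPMR and summed to 356, 469 and 449 RPMR. Its miRs above 10 RPMR were miR-379-5p, miR-411-5p, miR-411-3p, miR-299a-3p and miR-543-3p (11.7 ± 0.988, SD, n = 3). The mir-154 family had 13 of 16 located hairpins above 1 RPMR and summed to 279, 249 and 252 RPMR. Its miRs above 10 RPMR were miR-541-5p, miR-381-3p, miR-300-3p, miR-494-3p, miR-382-5p (9.32, 15.1 and 15.0 RPMR) and miR-409-3p (14.6, 11.8 and 9.95 RPMR). The small mir-376 list, which also counts mir-300 and mir-654, had 3 of 5 hairpins above 1 RPMR. It summed to 40.9, 42.8 and 41.6 RPMR, mostly miR-300-3p, which has another seed than miR-376b-3p and is also in the mir-154 list. The highest miR of mir-376a, mir-376b and mir-376c themselves was miR-376b-3p, at a mean of 3.78 RPMR. In both larger families most hairpins were detected, and a few miRs gave most of the sum.

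The hairpins mir-329, mir-487b, mir-494 and mir-495, whose miRs were studied in mice as brakes on new vessel growth after a blocked artery, summed to 38.3, 27.3 and 27.1 RPMR. The higher arm was above 1 RPMR in 3 of the 4, and its median over the 4 was 6.41 RPMR. The highest was miR-494-3p, at 16.7, 13.9 and 13.6 RPMR, which is among the 15 highest miRs of the cluster. miR-495-3p stood at 13.8, 7.65 and 7.58 RPMR. miR-329-3p stood at 3.74, 2.71 and 2.97 RPMR, and miR-487b-3p at 1.54, 0.638 and 0.395 RPMR. All 4 leading miRs of this list were highest in replicate 1. The list known from neurons, mir-134, mir-329, mir-379, mir-381 and mir-485, had all 5 hairpins above 1 RPMR and summed to 246, 308 and 294 RPMR, most of it miR-379-5p.

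The arm that gave the miR was then compared in every hairpin. Of the 47 hairpins of the cluster with at least 10 reads, 16 (34.0%) were called with the 5p miR higher, 28 (59.6%) with the 3p miR higher, and 3 were not called (edgeR's quasi-likelihood test, blocked by library, Benjamini-Hochberg adjusted p under 0.05). Over all 433 hairpins tested, 42.7% were called with the 5p miR higher and 46.0% with the 3p miR higher. Leaving the opposite hairpins out of these counts gave 14, 27 and 3 of 44, and a fit made without them called 14 and 26, since Mir667 then had an adjusted p of 0.0506 (edgeR). With DESeq2's own size factors, 10 had more 5p and 28 more 3p. The median log2 fold change of 5p over 3p was -1.41 in the cluster, -0.04 in the 386 other hairpins and -0.27 in all. Hairpins with more 3p were thus a larger share in the cluster than over the whole table, as a description without a test of the difference. All 44 called hairpins went one way in all 3 libraries, which adds no support, since the calls were made on these same libraries.

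**Figure D3:**
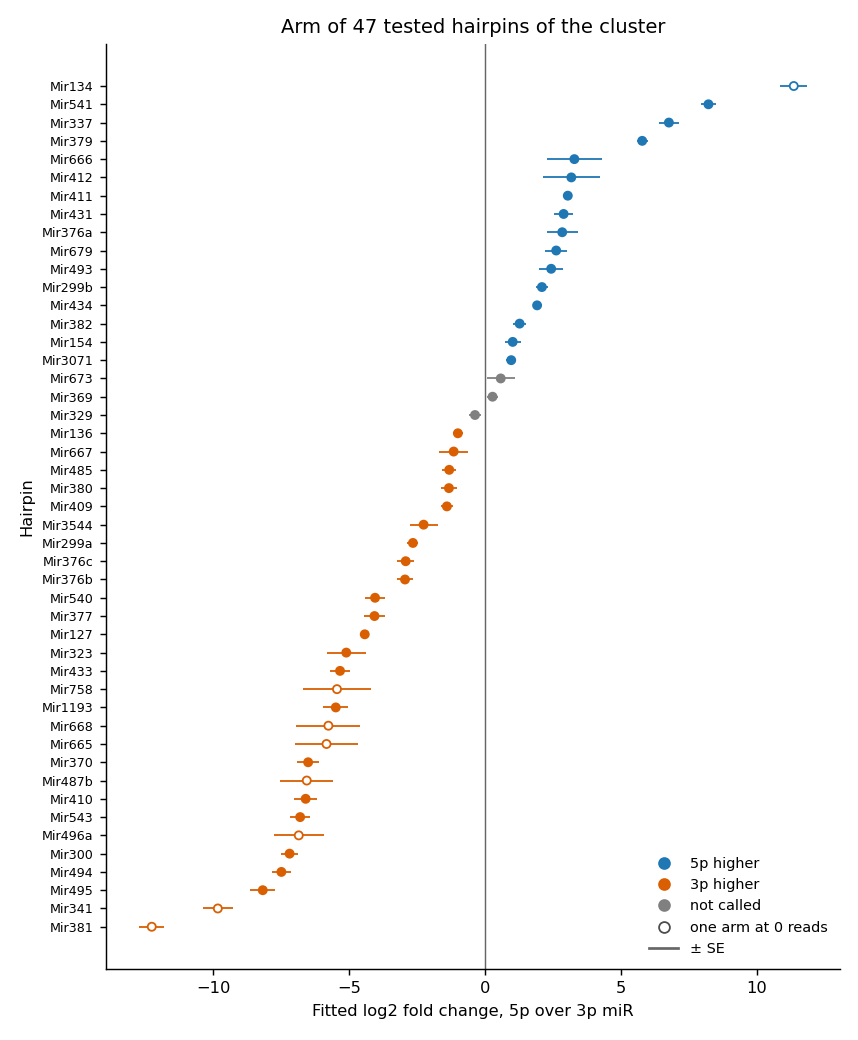
Fitted log2 fold change of the 5p over the 3p miR (± SE, edgeR, 3 libraries) for the 47 tested hairpins of the cluster, blue where the 5p miR was higher, orange where the 3p miR was higher and grey where not called, hollow where one arm had 0 reads. The estimates run from 11.35 at Mir134 to -12.26 at Mir381, and the hollow points depend on the prior count.

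The hairpins with the strongest bias to 5p were Mir134, Mir541, Mir337, Mir379 and Mir666. Mir134 gave 283, 314 and 382 reads of its 5p miR and 0 of its 3p miR in each library, at least 326-fold more of 5p against a limit of 3 reads over the libraries. Its adjusted p was 4.55e-11 (edgeR). Mir541 gave 1558, 1183 and 1523 reads of 5p and 7, 5 and 2 reads of 3p, a log2 fold change of 8.21 ± 0.28 (SE, adjusted p = 2.01e-13, edgeR). Mir337 gave 290, 225 and 276 reads of 5p and 4, 0 and 3 of 3p, a log2 fold change of 6.76 ± 0.36 (SE, adjusted p = 5.77e-11, edgeR). In each of them the lowest 5p count lay far above the highest 3p count. Mir379 gave 157, 230.0 and 213 RPMR of 5p and 3.45, 3.19 and 4.15 RPMR of 3p, a log2 fold change of 5.78 ± 0.20 (SE, adjusted p = 1.98e-13, edgeR). Mir666 rested on only 13 reads of 5p and 1 read of 3p (log2 fold change 3.28 ± 1.00, SE, adjusted p = 0.0065, edgeR). Its call was lost without replicate 2 (adjusted p = 0.057, edgeR) or without replicate 3 (adjusted p = 0.060, edgeR). Mir411, next to Mir379, had 8.28 reads of 5p per read of 3p (counting interval 7.68 to 8.94).

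The strongest bias to 3p was at Mir381, Mir341, Mir495, Mir494 and Mir300. Mir381 gave 0 reads of 5p in each library and 707, 503 and 629 reads of 3p, at least 613-fold more of 3p (adjusted p = 8.55e-12, edgeR). Mir341 gave 0 reads of 5p and 112, 106 and 123 reads of 3p, at least 114-fold more of 3p (adjusted p = 8.91e-10, edgeR). Mir495 gave 0, 0 and 1 read of 5p and 188, 96 and 115 reads of 3p, 399 reads of 3p per read of 5p with a counting interval of 71.2 to 15799. The 5p arm of these hairpins was at or near the limit of detection. Mir494 gave 1 read of 5p in each library and 228, 174 and 206 reads of 3p (log2 fold change -7.49 ± 0.35, SE, adjusted p = 1.02e-11, edgeR). Mir300 gave 1, 2 and 6 reads of 5p and 411, 437 and 508 reads of 3p (log2 fold change -7.19 ± 0.32, SE, adjusted p = 4.79e-12, edgeR). Mir127, the hairpin of the highest miR, gave 9.83, 9.80 and 9.62 RPMR of 5p and 248, 199 and 187 RPMR of 3p (log2 fold change -4.43 ± 0.17, SE, adjusted p = 8.81e-13, edgeR). The 5p miR of Mir127 was nearly the same in the 3 libraries, and the 3p miR differed by more.

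Hairpins with alike names did not always share an arm. Mir379, Mir411 and Mir376a were called with more 5p, while Mir380, Mir376b and Mir376c were called with more 3p. Mir376a gave 13, 8 and 17 reads of 5p and 1, 3 and 1 reads of 3p. Mir376b gave 20.5 reads of 5p and 156 of 3p in all, where some 5p reads had been split evenly between loci. Mir376c gave 17.5 reads of 5p and 124 of 3p in all. The 3 hairpins lie close together in the array and differed in direction (log2 fold changes 2.84 ± 0.56, -2.95 ± 0.30 and -2.92 ± 0.31, SE, for Mir376a, Mir376b and Mir376c), and the difference itself was not tested.

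In 3 hairpins neither arm was called higher. Mir329 gave 33, 29 and 38 reads of 5p and 51, 34 and 45 of 3p, 1.30 reads of 3p per read of 5p with a counting interval of 0.994 to 1.70 (adjusted p = 0.12, edgeR). Mir369 gave 66, 71 and 69 reads of 5p and 54, 46 and 72 of 3p, 1.20 reads of 5p per read of 3p with an interval of 0.973 to 1.48 (adjusted p = 0.23, edgeR). Mir673 gave 7, 8 and 9 reads of 5p and 4, 1 and 11 of 3p, a ratio of 1.50 with an interval of 0.764 to 3.02 (adjusted p = 0.30, edgeR). These intervals leave room for a difference in either direction. Scaling each arm to its own level moved all 3: Mir329 was called with more 3p under TMM (log2 fold change -1.39, adjusted p = 2.9e-06, edgeR) and DESeq2 (-1.11, adjusted p = 0.011), Mir369 was called with more 3p under TMM (-0.74, adjusted p = 0.0086, edgeR) and had an estimate of -0.46 under DESeq2 (adjusted p = 0.22), and Mir673 had an estimate of -0.38 under TMM (adjusted p = 0.48, edgeR). Among called hairpins only Mir3071 lay within 1 log2 unit of 0, at 0.96 ± 0.19 (SE, adjusted p = 0.00027, edgeR), and it shares its counts with Mir136, called with more 3p on 442 reads of 5p and 884 of 3p (adjusted p = 0.00018, edgeR). Mir667 was called at an adjusted p of 0.0499 (edgeR) on 11 reads of 5p and 25 of 3p, and lost the call without any one library (adjusted p between 0.092 and 0.41, edgeR). Mir412, with 12 reads of 5p and 1 of 3p, also lost it without any one library (adjusted p between 0.050 and 0.079, edgeR).

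Summed over the cluster without the opposite hairpins, 5p miRs stood at 652 ± 76.7 RPMR and 3p miRs at 495 ± 54.3 RPMR (SD, n = 3). More hairpins favoured 3p, but miR-379-5p, miR-411-5p, miR-541-5p and miR-434-5p carried the 5p sum. The 5p share of the miR reads of the cluster came to 50.3%, 60.0% and 60.1% in replicates 1, 2 and 3. Over all locations of the series it was 83.8%, 84.6% and 84.5%, and without the mir-21a hairpin, a setting chosen after seeing the data, 68.3%, 66.6% and 67.4%. The share of the cluster was the lower one in each library in both settings, by a smaller margin without mir-21a.

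Replicate 1 differed from the other libraries by arm. Of the cluster's 5p miRs above 1 RPMR, 4 of 18 were highest and 9 of 18 lowest in replicate 1. Of its 3p miRs above 1 RPMR, 17 of 28 were highest and 6 of 28 lowest there. Among other miRs above 1 RPMR, 45.0% of 5p miRs were highest and 36.5% lowest in replicate 1, and 41.7% of 3p miRs were highest and 37.2% lowest. The ratio of 5p to 3p was lowest in replicate 1 in 11 of the 13 hairpins of the cluster with at least 30 reads of each arm, against 65 of 151 other hairpins (43.0%). At Mir382 the ratio was 1.31, 3.39 and 3.20 in replicates 1, 2 and 3. At Mir434 it was 3.11, 4.42 and 3.87. At Mir379 it was 45.6, 72.2 and 51.2. The shift was common to hairpins of either arm preference, and Mir299a and Mir369 did not show it. Replicate 1 also had the lowest window share of mapped reads, and the part of that in the ratio was not tested. Mir382 was called with more 5p (log2 fold change 1.27 ± 0.25, SE, adjusted p = 0.00026, edgeR), but not without replicate 2 (adjusted p = 0.070, edgeR) or without replicate 3 (adjusted p = 0.083, edgeR).

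**Figure D4:**
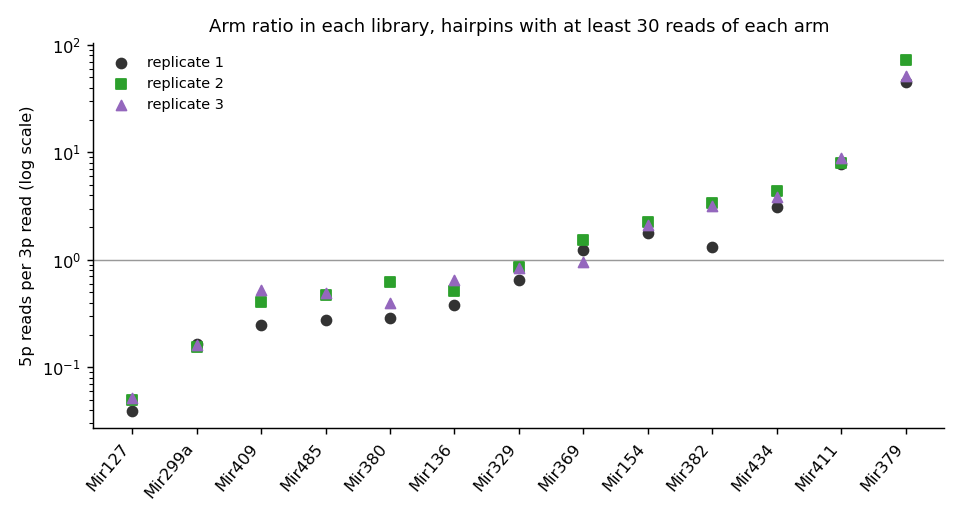
Reads of the 5p miR per read of the 3p miR (log scale) in each library for the 13 hairpins of the cluster with at least 30 reads of each arm, ordered by their mean, without the opposite hairpins. Replicate 1 (dark circles) is the lowest point in 11 of the 13, for example 0.246 at Mir409 against 0.405 and 0.523 in replicates 2 and 3.

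The spread of single miRs ran from below that of counting to far above it. For the 46 members above 1 RPMR outside the opposite hairpins, the coefficient of variation had a median of 14.9% and a range of 1.17% to 41.4%. It lay below what counting alone would give in 14 and above 2 times that in 13. miR-127-3p varied by 15.4% where counting gives 1.85%. miR-379-5p varied by 19.0% where counting gives 1.91%, and miR-411-5p by 18.4% where counting gives 2.19%. The lowest coefficient of variation was that of miR-127-5p, at 1.17% where counting gives 8.63%. The highest was miR-380-3p, at 2.79, 1.28 and 1.65 RPMR, with 41.4% where counting gives 19.5%. miR-495-3p varied by 36.9% where counting gives 8.67%. The spread of this miR came from replicate 1, at 13.8 RPMR, against 7.65 and 7.58 RPMR in replicates 2 and 3.

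The seed decides much of the target choice of a miR, so members were grouped by identical bases 2 to 8. The 112 sequences held 102 distinct seeds, of which 9 were shared between members and 12 were shared with miRs elsewhere. Of all 2045 locations, 1670 had a sequence, so seeds shared with the rest are not counted. Some groups with reads are shown, to set side by side the miRs that share a seed.
miR-411-3p: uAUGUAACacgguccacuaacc
miR-379-3p: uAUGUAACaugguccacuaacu
miR-299a-3p: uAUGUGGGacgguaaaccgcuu
miR-299b-3p: uAUGUGGGacgguaaacc
miR-1193-5p: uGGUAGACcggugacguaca
miR-329-3p: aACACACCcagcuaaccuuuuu
miR-362-3p: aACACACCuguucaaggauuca
miR-410-3p: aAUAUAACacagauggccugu
miR-344d-3p: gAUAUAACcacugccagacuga
The seed of miR-411-3p and miR-379-3p stood at 22.0 RPMR in all, of which miR-411-3p gave 18.4 ± 2.92 and miR-379-3p 3.60 ± 0.498 (SD, n = 3). The 5p miRs of these 2 hairpins, shown above, have different seeds. miR-379-5p shares its seed with miR-1193-5p, at 0.0709 RPMR, so nearly all of the 200.1 RPMR of that seed was miR-379-5p. The seed of miR-299a-3p and miR-299b-3p stood at 19.8 RPMR, but miR-299b-3p lies opposite miR-299a-5p and had nearly the same counts. In 3 of the groups shared with other loci the member had reads but gave the smaller part. miR-329-3p, at 3.14 RPMR, gave 2.87% of the level of its seed beside miR-362-3p on chromosome X, at 106 RPMR. miR-410-3p, at 5.61 RPMR, gave 12.6% beside the miR-344d and miR-344e copies on chromosome 7. miR-412-3p, with 1 read, gave 0.0501% beside miR-1983. The seeds of miR-411-5p, miR-495-3p and miR-679-5p were each shared with 1 miR elsewhere that had no read.

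The moRs of the cluster had few reads, all from the 5p side outside the opposite hairpins. Without the opposite hairpins, 17 of 110 moRs (15.5%) had a read, a share near the 276 of 1929 (14.3%) at other locations. These 17 moRs had 71 reads in all, and all 71 were 5p, against 86.0% of the moR reads at other hairpins. No moR of the cluster was above 1 RPMR, against 34 of the 1929 at other locations. Only 3 had a read in every library: moR-377-5p, moR-127-5p and moR-434-5p. moR-377-5p gave 54.9% of the reads, and 7 or fewer reads stood behind each of the other moRs. Per 100000 miR reads, the cluster had 150 moR reads and the other hairpins had 40.7, a description of all 3 libraries together that rests largely on mir-377.

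The mir-377 hairpin (chr12:109740510-109740577, plus strand, in an exon of Mirg) is shown with the window of its 5p moR in capitals, as the one arm of the cluster called with more moR than miR. The letters are those of a Mirg transcript in GENCODE M21, and within the hairpin they equal the RefSeq precursor.
mir-377: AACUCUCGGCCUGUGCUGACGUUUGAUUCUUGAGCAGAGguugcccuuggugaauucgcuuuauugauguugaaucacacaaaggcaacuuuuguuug
The window (chr12:109740480-109740518) has 39 bases, of which 9 lie inside the annotated hairpin and 4 overlap the start of miR-377-5p. The tables count reads per window and do not say which of these bases a read covered.

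moR-377-5p had 18, 11 and 10 reads, or 1.32, 0.877 and 0.659 RPMR, a mean of 0.952 RPMR. miR-377-5p had 1, 2 and 4 reads, or 0.0734, 0.159 and 0.264 RPMR. The lowest moR count lay above the highest miR count, and the 2 RNAs ordered the libraries in opposite ways. The log2 fold change of moR over miR was 2.41 ± 0.68 (SE, adjusted p = 0.00044, edgeR), or 5.57 moR reads per miR read with a counting interval of 2.46 to 14.8. Only arms with a moR read and at least 10 reads in all were tested, so the counts that follow leave out arms without a moR read. Of the 13 arms of the cluster tested, this 1 was called with the moR higher and 12 with the miR higher. Over all 243 arms tested, 5.76% were called with the moR higher and 91.8% with the miR higher. Scaling moRs and miRs each to their own level changed the counts of the cluster to 3 and 2 (TMM) or 8 and 1 (DESeq2), with the median over all arms moved by construction. The same hairpin gave 36, 37 and 50 reads of miR-377-3p, so its 3p miR lay above its moR. The 3p moR of mir-377 had 0 reads, at least 13-fold fewer than the 39 of the 5p moR (adjusted p = 1.6e-07, edgeR). That comparison could be tested for 81 hairpins of the series, of which 81.5% were called with the 5p moR higher, and of the cluster only for Mir377. Without replicate 3 it was not called (adjusted p = 0.12, edgeR).

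**Figure D5:**
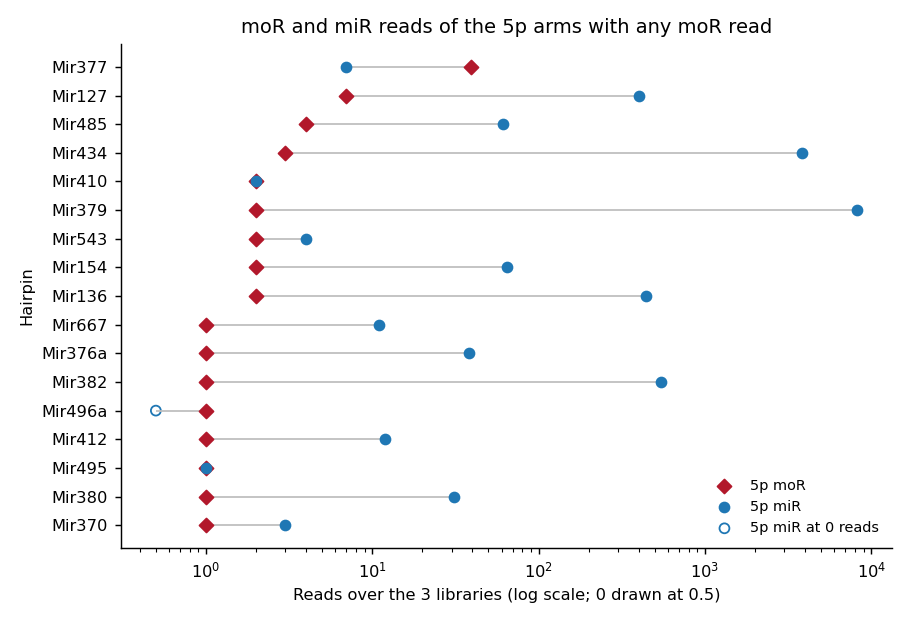
Reads over the 3 libraries (log scale) of the 5p moR (diamonds) and of the 5p miR (circles, hollow and drawn at 0.5 for 0 reads) for the 17 hairpins of the cluster with a moR read. Mir377 has 39 moR reads and 7 miR reads, while Mir379 has 2 moR reads and 8257 miR reads.

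The other moRs stood far below their miRs or had too few reads to compare. moR-127-5p had 1, 5 and 1 reads beside 134, 123 and 146 reads of miR-127-5p (log2 fold change -5.77 ± 0.40, SE, adjusted p = 1.09e-39, edgeR), which turned to 2.48 under TMM and 2.53 under DESeq2 scaling. moR-379-5p had 0, 1 and 1 reads beside 2145, 2886 and 3226 reads of miR-379-5p (log2 fold change -11.77 ± 0.42, SE, adjusted p = 9.11e-103, edgeR). Among the 5 highest miRs, miR-127-3p, miR-411-5p and miR-541-5p had no moR read on their arm. The arms of miR-379-5p and miR-434-5p had 2 and 3 moR reads over the libraries. Whether miR and moR levels go together was not tested. The moRs of Mir410, Mir543, Mir370, Mir495 and Mir496a had 1 or 2 reads beside 0 to 4 reads of the 5p miR, under the minimum of 10 reads for a test.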

How the data were processed

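The authors trimmed adaptors, kept inserts over 13 bases and mapped them to mm10 with Bowtie (no version stated in the sources used) without mismatches at up to 5 loci. Reads within a miR widened by 3 bases counted for the miR, and reads from 3 bases inward to 35 bases outward of its outer end for the moR. The authors deposited expected counts (reads split evenly between loci, 96.1% whole within 1e-09) and RPMR, an RPM value per 1000000 reads in these windows. Deposited locations (other) gave the positions. RPMR recomputed from the counts differed by at most 7.3e-12.

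The rule for members uses position alone, but the cluster and the lists were chosen with earlier results of these data known. The 5p and 3p miR, the moR and miR, and the 5p and 3p moR of every hairpin with at least 10 reads were compared on rounded counts with edgeR 4.0.16 (R 4.3.3), window totals as library sizes and no further scaling, over all rows. A moR was compared with its miR only on arms with a moR read, so arms without one were not tested. The library was a block, since both RNAs come from the same library. DESeq2 1.42.0 was an alternative. Fold changes against 0 reads use a floor of 3 reads, and counting intervals are 95% exact Clopper-Pearson intervals. On simulated data with real library sizes, changes of 4-fold and 16-fold were called in 84.7% and 100% of miR arms (433 hairpins), in 97.6% and 100% of moR against miR (243 arms) and in 64.3% and 100% of moR arms (81 hairpins), and 2 of 289, 1 of 162 and 0 of 54 unchanged ones were called. The simulated counts were centred on the mean of the 2 RNAs compared, with a fixed dispersion. These shares therefore do not give the power for a moR far below its miR. Text names the 15 highest miRs, the 5 largest folds to each arm and those within 1 log2 unit of 0, moRs with at least 10 reads or above their miR, shared seeds and list members above 10 RPMR. Other names, such as Mir382, Mir376b and Mir667, were chosen after their values were seen. Python 3.11.15, numpy 2.4.6, pandas 2.3.3, SciPy 1.17.1 and matplotlib 3.10.9 were used.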

Additional observations from a re-analysis of the deposited data

How the results depend on the processing

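The fits without the library pairing ("no replicate block") gave the same counts in the cluster: 16 hairpins with more 5p miR, 28 with more 3p miR, 1 arm with more moR, 12 with more miR and 1 hairpin with more 5p moR. Scaling by TMM or DESeq2 size factors re-centres each kind of RNA by construction. TMM moved the median log2 fold change over all hairpins for 5p over 3p miR to -1.29 and DESeq2 to -0.99, against -0.27, and for moR over miR to -0.47 and -0.26, against -8.67. DESeq2 then called 10 hairpins with more 5p miR, and the moR was called higher in 3 arms (TMM) or 8 (DESeq2) and the miR in 2 (TMM) or 1 (DESeq2). At single hairpins, 52 results were followed, not all of those tested. Among these, TMM turned the log2 fold change to -0.0090 at Mir154, -0.057 at Mir3071, -0.74 at Mir369 and -0.38 at Mir673. DESeq2 turned it to -0.46 at Mir369. For the moR over the miR of Mir127 it turned to 2.48 with TMM and 2.53 with DESeq2. Other moR arms of the cluster also turned with DESeq2, which called the moR higher in 8 arms against 1. With DESeq2 on window totals, added after seeing the data, 14 hairpins had more 5p and 27 more 3p miR, and 1 arm more moR and 12 more miR. Leaving out 1 library gave 13 to 15 hairpins with more 5p miR and 27 with more 3p miR, 1 arm with more moR and 10 to 11 with more miR, and 0 to 1 hairpin with more 5p moR. It gave a cluster sum of 1180 to 1203 RPMR, 49 to 52 miRs above 1 RPMR and 0 to 1 moR above it. The cluster sum was 947 per 1000000 mapped reads, 2481 with mir-21a out of the denominator, 1158 for miRs with whole reads and 1146 without the opposite hairpins. At 0.5 RPMR, 1 moR of the cluster passed. Of the other values of the 52 followed results, 524 kept their direction and call, 27 lost the call and 2 gained it. Depth limits the moRs and the lower arms, most of them under 10 reads.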

Other observations

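The following patterns were noticed after the sequences and values were seen, and no test was made of them. The letters ACACGG stood in 5 of 111 distinct mature sequences of the cluster (miR-411-3p, miR-323-3p, miR-494-3p, miR-485-3p and miR-154-3p) and in 2 of 1500 others. The letters ACAUGG, searched in the same sequences as written, stood in 6 of the 111 and 18 of the 1500, and no sequence of the cluster held both. Related hairpins share sequence, so these are not independent cases. First bases were counted for miRs above 1 RPMR with a known sequence, outside the opposite hairpins. Of these, 3 of 44 in the cluster (6.82%) and 81 of 368 elsewhere (22.0%) began with C. With U began 20 of 44 (45.5%) and 158 of 368 (42.9%).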
